A study of Mus musculus with 9 samples.

Results

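Srp14 and 6 further genes of the signal recognition particle (SRP) and its receptor were described in RNA-seq libraries of primary microglia after control, Chd8 or Tsc2 siRNA. The 7 genes, Srp14, Srp9, Srp68, Srp72, Srp54a, Srp19 and Srprb, were among 54119 genes with a transcript in the table, and all 7 passed the filter on low counts that left 16273 genes. Srp14 was selected on its gene-level values in both control comparisons, in which it was higher in each knockdown, so its differences from the control siRNA group are given as a description. Calls of it by the fits are counted only among the alternatives and are not read as evidence. The other 6 were named as its partners in the particle and the receptor.

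The SRP is a complex of RNA and protein that binds a signal peptide as it leaves the ribosome and brings the ribosome to the endoplasmic reticulum, where secreted and membrane proteins are made. Its scaffold is the 7SL RNA. The products of Srp9 and Srp14 form a heterodimer on the Alu domain of that RNA, which slows translation until the ribosome has docked, whereas the products of Srp19, Srp54a, Srp68 and Srp72 sit on the S domain, which reads the signal peptide. The receptor has an alpha subunit, encoded by Srpr, and a membrane-anchored beta subunit, encoded by Srprb. Microglia are the resident macrophages of the brain, and many of their cytokines, complement proteins and surface receptors enter the secretory pathway by this route.

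The 9 libraries came from C57BL/6J mice, with 3 libraries per siRNA and the replicate numbers 1, 2 and 3 in each group. Microglia were shaken off mixed glial cultures of whole brains at embryonic day 18, each biological replicate being the culture of a separate brain, and were transfected for 3 days with a negative control siRNA, an siRNA against Chd8, which encodes a chromatin remodeler, or an siRNA against Tsc2, which encodes an inhibitor of mTORC1 signaling. All groups received the transfection reagent and an siRNA, and no untransfected cells were analysed here. The results of the study name a stimulation with lipopolysaccharide for the sequenced cells, whereas the sample labels name none. Chd8 was at 86.8, 44.5 and 38.3 CPM (counts scaled to a common library size) with Chd8 siRNA and at 117.9, 97.4 and 93.6 CPM with control siRNA. Tsc2 was at 24.6, 30.6 and 36.5 CPM with Tsc2 siRNA and at 40.8, 39.9 and 38.9 CPM with control siRNA, so that both transcripts were lowered in part and unevenly. Within replicate numbers 1 to 3, the log2 ratio of Chd8 with its siRNA to control was −0.44, −1.12 and −1.28. That of Tsc2 with its siRNA was −0.72, −0.38 and −0.09. Total counts per library were between 16913448 and 33213801, and 3 counts, taken as the smallest number detected, equaled 0.0903 to 0.177 CPM, a floor that covers counting error only. All 10 microglia markers exceeded 3 counts in at least 1 library and 9 passed the filter on low counts. Their summed level was 2334 to 3118 CPM in the control, 2555 to 3319 CPM in the Chd8 and 3017 to 3152 CPM in the Tsc2 siRNA group. The 7 astrocyte markers together were at 10.7 to 99.8 CPM in the control, 10.6 to 42.0 CPM in the Chd8 and 9.73 to 43.5 CPM in the Tsc2 siRNA group. The 5 fibroblast markers together were at 7.66 to 52.6 CPM, 6.00 to 16.9 CPM and 4.27 to 30.4 CPM in the same groups. The 5 neuron markers together were at 4.22 to 15.2 CPM, 2.61 to 9.34 CPM and 2.61 to 3.37 CPM, with all 3 Tsc2 libraries below all 3 control libraries, as for 4.23% of the single genes tested. The 4 endothelial markers together were at 148 to 193 CPM, 108 to 134 CPM and 116 to 169 CPM, with all 3 Chd8 libraries below all 3 control libraries, as for 4.92% of the single genes tested. The 8 oligodendrocyte lineage markers together were at 20.0 to 30.5 CPM, 20.6 to 29.3 CPM and 13.1 to 26.7 CPM. The highest value of the astrocyte, fibroblast, neuron and endothelial lists was that of control library 3, which also had the lowest microglia sum and the lowest level of Srp14. The part of such cells in the differences was not tested. Of the markers of these other cell types, the neuron marker Rbfox3 and the endothelial marker Cldn5 were the ones that did not exceed 3 counts in any library.

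Srp14 (ENSMUSG00000009549) lies on the minus strand of chromosome 2, at 118475850 to 118479711 of GRCm38, the assembly of mm10. Its annotation in GENCODE release M21 holds 4 transcripts. Srp14-201, with 5 exons and 798 bases, and Srp14-202, with 3 exons and 587 bases, are annotated as protein coding. Srp14-203, with 765 bases, and Srp14-204, with 542 bases, are processed transcripts with no annotated protein. The junctions that tell them apart are shown because nearly all counts of the gene fell on the first of them. Each line gives 15 bases on each side of a junction, in the direction of transcription, and capitals mark the bases at which the lines of a pair differ. The end of exon 1, joined to exon 2, differs in Srp14-203, whose exon 1 starts 63 bases later than that of Srp14-201 and ends 41 bases further downstream.
Srp14-201: CTCGAGAGCGAGCAgttcctgacggagctg
Srp14-203: ACTCGAGCGAGTGGgttcctgacggagctg
After exon 3, Srp14-201 is spliced to exon 4, whereas exon 3 of Srp14-202 runs 356 bases into the intron and ends there.
Srp14-201: aagatcagcaccgtggtgagctCCaAAGAA
Srp14-202: aagatcagcaccgtggtgagctGGaGGCCT
Before exon 4, Srp14-204 has a first exon of its own with 52 bases.
Srp14-201: AAGATCAGCAccGTggtgagctccaaagaa
Srp14-204: TCTCAAGTAGccAAggtgagctccaaagaa

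The first question was how much of each subunit the cells contained. Levels of different genes were compared per length, in TPM (counts divided by the transcript length and scaled to the same total in each library). In the control siRNA group the 7SL RNA gene Rn7s1 was listed at 20734 to 24616 TPM, far above every protein gene of the particle. 7SL genes and their copies share sequence, so the locus of origin of these reads is uncertain. Among the protein genes, Srp54a, which encodes the GTPase that holds the signal peptide, had the highest level, 25.0 TPM ± 2.50 (SD, n = 3). The receptor gene Srpr was next with 17.5 TPM ± 1.86 (SD, n = 3).

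Srp14 followed with 13.7 TPM ± 2.71 (SD, n = 3), and its range of 11.1 to 16.5 TPM overlapped those of Srpr above it and of Srp54b and Srp72 below it. Srp54b was at 12.4 TPM ± 1.92 and Srp72 at 11.1 TPM ± 0.810 (SD, n = 3 each), so these neighbours in the order did not differ beyond their spread. The level of Srp54b is not that of an SRP subunit message, since 83.9% to 99.3% of its counts in every library but control library 1, where the share was lower, fell on Srp54b-202, a processed transcript of 580 bases with no annotated protein, and its coding transcript Srp54b-201 was listed at 0 in 7 of 9 libraries. The level of Srp54a also holds a processed transcript of that length, Srp54a-206, with 13.0% of the counts of the gene, and short transcripts weigh more per length. Srp9 was at 8.38 TPM ± 0.237 (SD, n = 3) and overlapped neither Srp72 nor Srp54c, which was at 6.14 TPM ± 0.532 (SD, n = 3). Srp68 and Srp19 had the same mean level, 5.03 TPM, with SDs of 0.507 and 1.11. Srprb was the lowest member with 1.22 TPM ± 0.456 (SD, n = 3), below every other gene of the particle in each control library.

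Srp14 moved up this order in both knockdowns. Its level per length was 26.7, 28.4 and 36.2 TPM with Chd8 siRNA and 26.1, 24.0 and 29.9 TPM with Tsc2 siRNA, against 16.5, 13.6 and 11.1 TPM in the control libraries. With Chd8 siRNA its mean was 30.4 TPM beside 26.7 TPM for Srp54a, but the ranges overlapped and Srp54a was the higher of the pair in Chd8 library 1, at 28.1 TPM. With Tsc2 siRNA its mean was 26.6 TPM beside 29.9 TPM for Srp54a and 21.2 TPM for Srpr. The level of Srp54a depends on how reads were split among its near-identical copies.

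**Figure D1:**
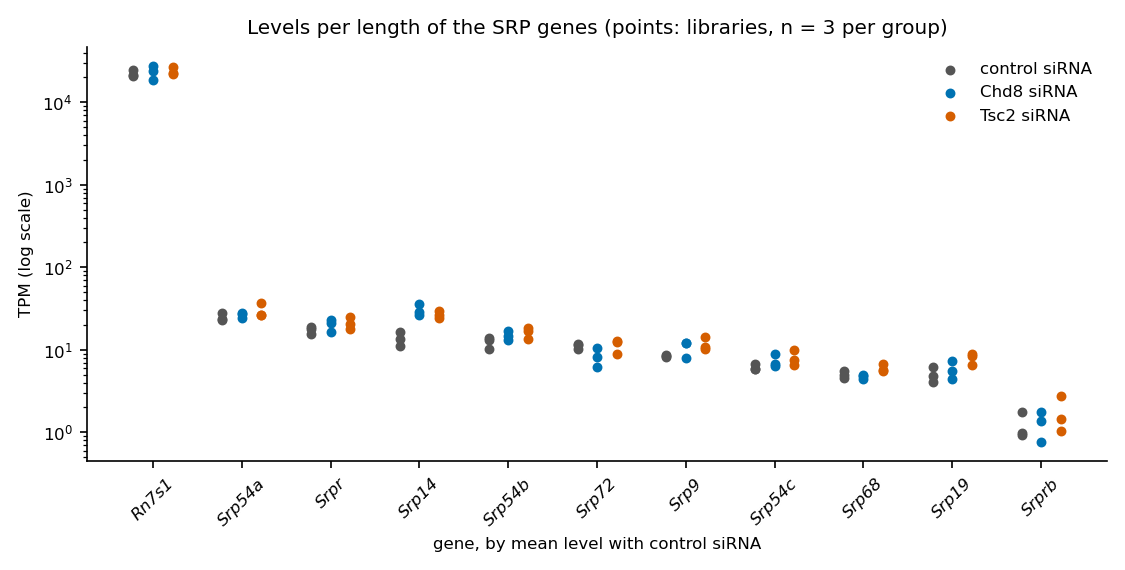
Levels per length of the SRP genes, in TPM on a log axis, with 1 point per library and 3 libraries per siRNA, ordered by the mean with control siRNA. Rn7s1 lies at 18426 to 27689 TPM, Srp14 lies at 11.1 to 16.5 TPM with control siRNA and at 24.0 to 36.2 TPM in the 6 knockdown libraries, and Srprb is the lowest.

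On the scale used for comparisons between libraries, Srp14 was at 25.9, 24.3 and 16.2 CPM in control libraries 1 to 3. It was at 39.3, 56.4 and 53.0 CPM with Chd8 siRNA and at 40.2, 40.3 and 40.9 CPM with Tsc2 siRNA. Each of the 6 knockdown libraries was above each of the 3 control libraries, and between the highest control library and the lowest knockdown library lay a gap from 25.9 to 39.3 CPM. The Tsc2 siRNA libraries were close together, with an SD of 0.358 CPM, whereas the SD was 9.04 CPM with Chd8 siRNA and 5.22 CPM with control siRNA. In bulk RNA, more RNA per cell and a larger share of cells with a higher level cannot be told apart.

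The fitted log2 fold change of Srp14 was 1.16 (SE 0.20) for Chd8 siRNA against control siRNA and 0.87 (SE 0.20) for Tsc2 siRNA against control siRNA, that is 2.24-fold and 1.83-fold. Both comparisons share the 3 control libraries and are not independent. Within replicate numbers, the log2 ratio of Chd8 siRNA to control siRNA was 0.59, 1.20 and 1.68 for numbers 1 to 3, and that of Tsc2 siRNA to control siRNA was 0.62, 0.72 and 1.31. The ratios of both knockdowns were largest for number 3, whose control library had the lowest Srp14 level. Tsc2 itself was lowered least at that number (log2 ratio −0.09 with Tsc2 siRNA). Without control library 3 the log2 fold changes of Srp14 were 0.98 and 0.69. In the fit of the siRNA alone, 0 of 16273 genes were called at an adjusted p of 0.05 and a fold change of 1.5 (0% in both comparisons), and an unadjusted p under 0.05 was found for 622 genes in the Chd8 and 425 in the Tsc2 comparison (edgeR's quasi-likelihood test). With the replicate number in the fit as a block, the Chd8 comparison had 87 called genes (0.535%) and the Tsc2 comparison 63 (0.387%). The target Chd8 was among the 87 (edgeR adjusted p = 0.00777) and the target Tsc2 was not among the 63 (edgeR adjusted p = 0.219). Nothing is read from these fits for Srp14, which was chosen on the same comparisons. When single libraries were left out of the fit with the block, its log2 fold change for Chd8 siRNA was lowest without control library 3 (0.93) and highest without control library 1 or Chd8 library 1 (1.38 each). For Tsc2 siRNA it was lowest without control library 3 (0.65) and highest without control library 1 (1.11).

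The difference between the knockdowns was a log2 fold change of 0.29 (95% interval −0.15 to 0.73) for Chd8 siRNA against Tsc2 siRNA. Chd8 library 1, at 39.3 CPM, lay below all 3 Tsc2 libraries, and Chd8 libraries 2 and 3 lay above them, so the groups overlapped. This interval includes both no difference and a difference of over 1.5-fold.

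Nearly all of this was Srp14-201. This transcript had estimated counts of 655, 390 and 377 in the control libraries, 1155, 874 and 1285 in the Chd8 libraries and 927, 777 and 1383 in the Tsc2 libraries. It held 98.4% of the counts of the gene over all libraries and between 95.2% and 100% in each library, so that the gene's values and those of this transcript had the same order of groups. Scaled to library size, it was at 21.6 CPM ± 4.74 with control siRNA, 49.1 CPM ± 9.13 with Chd8 siRNA and 39.7 CPM ± 0.773 with Tsc2 siRNA (SD, n = 3 each).

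The other 3 transcripts were at or near the limit of detection. Srp14-202, which ends inside the intron after exon 3, had at most 11.8 counts and was listed at 0 in 4 libraries. Srp14-203, with the later end of exon 1, had at most 23.1 counts, in control library 1, and was listed at 0 in 2 libraries. Srp14-204 had at most 5.99 counts and was listed at 0 in 5 libraries. None of these 3 passed the filter, and no difference between groups was detectable for them at this depth.

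**Figure D2:**
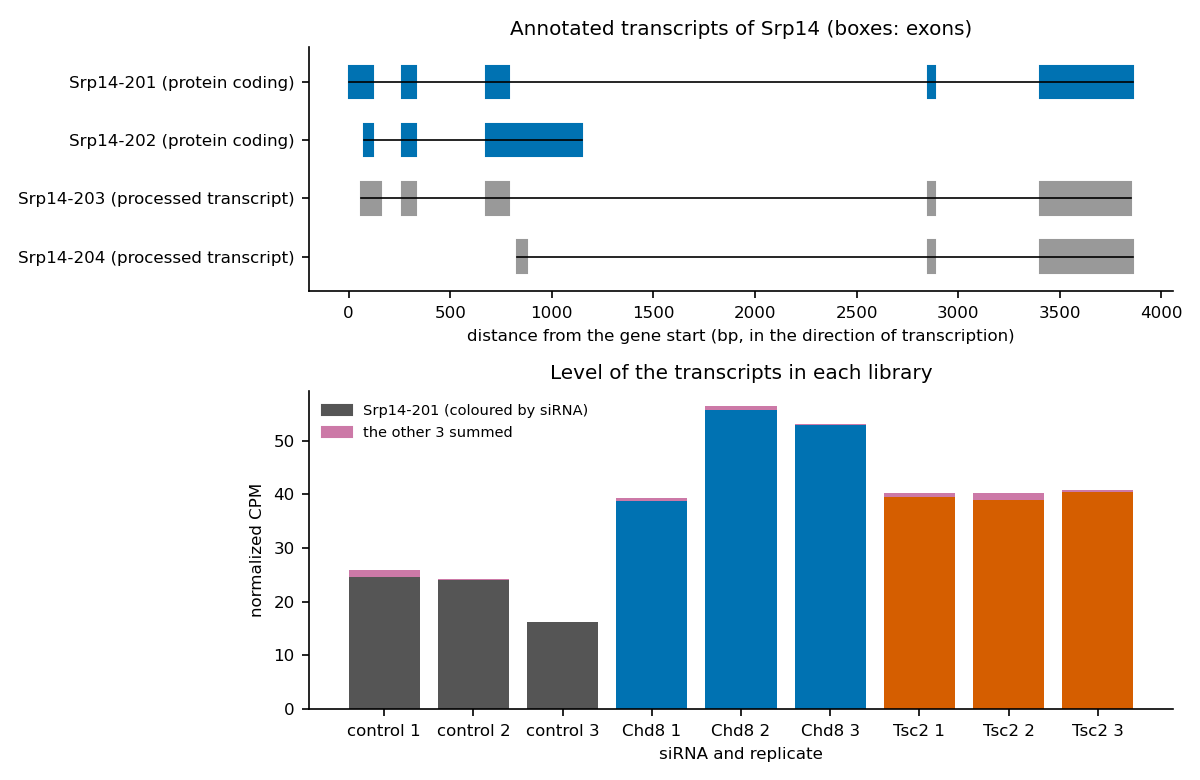
Top, exons of the 4 annotated Srp14 transcripts by distance from the gene start in bp. Bottom, normalized CPM of Srp14-201 (bars colored by siRNA) with the other 3 transcripts stacked on it, per library. Srp14-201 makes up at least 95.2% of each bar, and all 6 knockdown bars are taller than the 3 control bars.

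Srp9 (chromosome 1, 182124737 to 182132407, plus strand) encodes the partner of Srp14 on the Alu domain, and its product binds the RNA only as part of that heterodimer. It was at 23.6, 25.2 and 21.8 CPM with control siRNA, 32.3, 28.5 and 30.9 CPM with Chd8 siRNA and 28.9, 29.5 and 35.8 CPM with Tsc2 siRNA. All 6 knockdown libraries were above all 3 control libraries, as for Srp14, over a smaller distance. All 3 libraries lay above all 3 control libraries for 4.17% of the genes tested with Chd8 siRNA and for 3.87% with Tsc2 siRNA. Both shares rest on the same control libraries, and the share with all 6 above was not counted. The log2 fold changes of Srp9 were 0.38 (SE 0.14) for Chd8 siRNA and 0.42 (SE 0.14) for Tsc2 siRNA, and neither passed the test (edgeR adjusted p = 1.00 for both, and 0.186 and 0.196 with the replicate block). The separation depended on the scale. Per length, Chd8 library 2 had 7.93 TPM of Srp9 and lay below the 8.14 to 8.62 TPM of the control libraries, whereas the other 5 knockdown libraries lay between 10.2 and 14.5 TPM.

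The ratio of Srp14 to Srp9, per length, was 1.92, 1.67 and 1.33 in the control libraries. It was 2.19, 3.58 and 2.98 with Chd8 siRNA and 2.42, 2.34 and 2.07 with Tsc2 siRNA. The ratio was above the highest control value in all 6 knockdown libraries. Since Srp14 was chosen for being higher, this ratio carries the same choice and is given with no test.

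Transcripts of Srp9 followed the gene in part. Srp9-201, the protein-coding transcript with 89.6% of the counts of the gene, was at 20.1, 22.2 and 19.5 CPM with control siRNA, 28.9, 25.7 and 28.4 CPM with Chd8 siRNA and 25.5, 27.6 and 32.03 CPM with Tsc2 siRNA. Srp9-202, a shorter coding transcript, was at 1.51, 1.11 and 0.472 CPM with control siRNA and at 0.319 to 0.902 CPM in the 6 knockdown libraries, so that its groups overlapped. Srp9-203, which retains an intron, was at 0.953 to 3.28 CPM in the 9 libraries, with no order of the groups. Of 36 transcripts of the 7 genes in the table, 2 were at 0 in every library and 22 passed the filter. For the 21 of these that do not belong to Srp14, 0 were called in either control comparison by edgeR's quasi-likelihood test, with or without the block, beside 0 of all 41633 transcripts tested. DESeq2's Wald test gave adjusted p-values to 25 and 22 such transcripts for Chd8 and Tsc2 siRNA and called 0, beside 0.387% and 0.35% of all transcripts. Between the knockdowns it called 0 of 22, beside 0.495%. Those with an unadjusted p under 0.05 in edgeR's fits were Srp9-201 in both comparisons and Srp19-201 with Tsc2 siRNA, beside 3.32% and 2.83% of all transcripts for Chd8 and Tsc2 siRNA.

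The 250 bases before the RefSeq starts of Srp14 and Srp9 are shown because both genes of the heterodimer had all knockdown libraries above all control libraries on the CPM scale. They are RefSeq sequences of GRCm38.p6, on the strand of the gene. For Srp14 this is chr2:118479697-118479946, minus strand, and the GENCODE start of the gene, at 118479711, lies within the stretch, so that its last bases belong to the first exon of that annotation.
Srp14: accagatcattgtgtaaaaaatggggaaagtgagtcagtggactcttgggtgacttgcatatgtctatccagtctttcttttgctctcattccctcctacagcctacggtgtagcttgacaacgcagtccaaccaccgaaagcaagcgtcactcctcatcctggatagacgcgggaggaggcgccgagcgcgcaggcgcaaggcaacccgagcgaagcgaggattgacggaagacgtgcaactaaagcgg
For Srp9 it is chr1:182124487-182124736, plus strand, and capitals mark the matches to a searched motif.
Srp9: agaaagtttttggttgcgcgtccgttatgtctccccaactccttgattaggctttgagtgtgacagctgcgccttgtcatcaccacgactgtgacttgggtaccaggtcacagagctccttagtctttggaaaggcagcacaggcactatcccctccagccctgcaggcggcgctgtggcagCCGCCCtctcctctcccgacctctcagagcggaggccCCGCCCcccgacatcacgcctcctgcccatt
Of 32851 promoters of the same length, searched on both strands, the CCAAT box is found in 33.8%, the ETS motif CCGGAAGT in 2.88%, the GC box GGGCGG in 32.7%, the TATA box as TATAAA in 12.4% and the E-box CACGTG in 6.02%. None of the 5 was found in these 250 bases of Srp14. In those of Srp9, GGGCGG was found 2 times, on the opposite strand and with no overlap, beginning 68 and 31 bases before the start. A match is a description of the letters and not a site of binding.

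Of the 4 members of the S domain, 0 were called by edgeR against control siRNA, beside 0% of all genes without the block and 0.535% and 0.387% with it for Chd8 and Tsc2 siRNA. Their log2 fold changes ran from −0.32 for Srp72 to 0.17 for Srp19 with Chd8 siRNA, in both directions, and from 0.02 for Srp72 to 0.52 for Srp19 with Tsc2 siRNA, all above 0. Srp72 (chromosome 5, 76974683 to 76999937, plus strand), whose product forms a heterodimer with that of Srp68 on the 7SL RNA, was at 53.8, 58.9 and 51.3 CPM with control siRNA, at 43.5, 42.8 and 45.4 CPM with Chd8 siRNA and at 59.0, 53.2 and 53.6 CPM with Tsc2 siRNA. All 3 Chd8 libraries were below every other library, and the Tsc2 and control libraries overlapped. The log2 fold change for Chd8 siRNA was −0.32 (SE 0.11) against control siRNA and −0.33 (95% interval −0.59 to −0.08) against Tsc2 siRNA. Neither passed the test (edgeR adjusted p = 1.00 for both, and 0.158 and 0.185 with the replicate block). All 3 Chd8 libraries lay below all 3 control libraries for 4.92% of the genes tested and below all 3 Tsc2 libraries for 4.42%. The share below both groups was not counted. Per length the groups overlapped, since Chd8 library 3 had 10.7 TPM of Srp72 and control library 2 had 10.2 TPM. With the most abundant transcript of each gene alone, the log2 fold change of Srp72 for Chd8 siRNA against control siRNA was −0.06 (SE 0.23).

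The counts of Srp72 were split between a pair of coding transcripts with large differences between libraries. Srp72-201 was at 24.5, 36.3 and 27.2 CPM in the control and at 30.4, 20.5 and 34.4 CPM in the Chd8 libraries. Srp72-202 was at 23.0, 18.3 and 17.7 CPM in the control and at 11.2, 22.1 and 4.11 CPM in the Chd8 libraries. In the Chd8 libraries the second was lower where the first was higher, and the single transcripts varied more than the gene. With Chd8 siRNA, the log2 fold change was −0.04 (SE 0.24) for Srp72-201 and −0.65 (SE 0.55) for Srp72-202.

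Srp68 (chromosome 11, 116245166 to 116274217, minus strand) showed no separation of the groups. Its levels were 21.5, 27.7 and 23.9 CPM with control siRNA, 22.1, 28.6 and 20.4 CPM with Chd8 siRNA and 27.4, 28.9 and 28.5 CPM with Tsc2 siRNA. The log2 fold changes were −0.04 (SE 0.17) for Chd8 siRNA and 0.22 (SE 0.17) for Tsc2 siRNA. The interval of the first ran from −0.41 to 0.33 and that of the second from −0.16 to 0.59. In this fit a change of up to 1.5-fold in the Tsc2 siRNA group could not be told from none. With the replicate block the interval of the second was −0.04 to 0.49, and Srp68 was higher with Tsc2 than with control siRNA at all 3 replicate numbers.

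Srp19, whose product binds the 7SL RNA early and prepares it for the binding of the Srp54 protein, was at 8.37, 11.9 and 8.79 CPM with control siRNA, 9.68, 10.8 and 12.1 CPM with Chd8 siRNA and 15.02, 12.7 and 13.9 CPM with Tsc2 siRNA. The 3 Tsc2 libraries were above the other 6, beside 3.87% of all genes with all Tsc2 libraries above all control libraries and 4.42% with all Chd8 libraries below all Tsc2 libraries. The share with both was not counted. The log2 fold change for Tsc2 siRNA against control siRNA was 0.52 (SE 0.20), or 1.44-fold, and did not pass the test (edgeR adjusted p = 1.00, and 0.267 with the replicate block). For Chd8 siRNA it was 0.17 (SE 0.20), with overlapping groups. The direct difference, Chd8 siRNA against Tsc2 siRNA, was −0.36 (95% interval −0.79 to 0.08), so the knockdowns were not shown to differ in Srp19. On both the CPM and the TPM scale the 3 Tsc2 libraries were above the 3 control libraries, but per length Chd8 library 3, with 7.25 TPM, lay above Tsc2 library 2, with 6.52 TPM.

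Srp54a (chromosome 12, 55080262 to 55115367, plus strand), the signal peptide-binding GTPase, was the steadiest of the 7 members. It was at 69.4, 77.0 and 77.4 CPM with control siRNA, 75.3, 79.6 and 78.6 CPM with Chd8 siRNA and 73.7, 76.6 and 90.8 CPM with Tsc2 siRNA, and its coefficient of variation over the 9 libraries was 7.45%, against 35.3% for Srp14 and 11.9% to 20.9% for the other members. The log2 fold changes were 0.06 (SE 0.12) and 0.11 (SE 0.12) for Chd8 and Tsc2 siRNA, with intervals of −0.21 to 0.33 and −0.16 to 0.37. Counts of this gene are uncertain, because Srp54b and Srp54c lie on the same chromosome and match it over 3644 and 3640 bases with 99.6% and 99.5% identity. Summed over the 3 copies, the level was 136 CPM ± 5.63 with control siRNA, 150 CPM ± 12 with Chd8 siRNA and 155 CPM ± 18.2 with Tsc2 siRNA (SD, n = 3 each). Taken singly, Srp54b had log2 fold changes of 0.15 (SE 0.24) and 0.24 (SE 0.24), and Srp54c of 0.27 (SE 0.16) and 0.31 (SE 0.16), for Chd8 and Tsc2 siRNA.

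The receptor genes did not separate the groups. Srprb (chromosome 9, 103188032 to 103202137, minus strand), the membrane anchor of the receptor, was at 5.69, 6.77 and 9.78 CPM with control siRNA, 9.58, 5.87 and 7.82 CPM with Chd8 siRNA and 8.66, 6.67 and 9.57 CPM with Tsc2 siRNA. It had 92 to 327 counts per library, the fewest of the members, and a coefficient of variation of 20.9% over the 9 libraries. Its log2 fold changes were 0.07 (SE 0.28) and 0.16 (SE 0.28) for Chd8 and Tsc2 siRNA. Srpr was at 83.0 to 89.4 CPM with control siRNA, 85.4 to 92.3 CPM with Chd8 siRNA and 81.3 to 97.9 CPM with Tsc2 siRNA, with log2 fold changes of 0.07 (SE 0.11) and 0.10 (SE 0.11).

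The scaffold RNA did not separate the groups either. Rn7s1 was at 12812, 16516 and 11350 CPM with control siRNA, 10234, 20783 and 13030.5 CPM with Chd8 siRNA and 12799, 17071 and 11816 CPM with Tsc2 siRNA. In every group the library with the replicate number 2 was the highest. The log2 fold changes were 0.11 (SE 0.26) and 0.04 (SE 0.26) for Chd8 and Tsc2 siRNA.

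**Figure D3:**
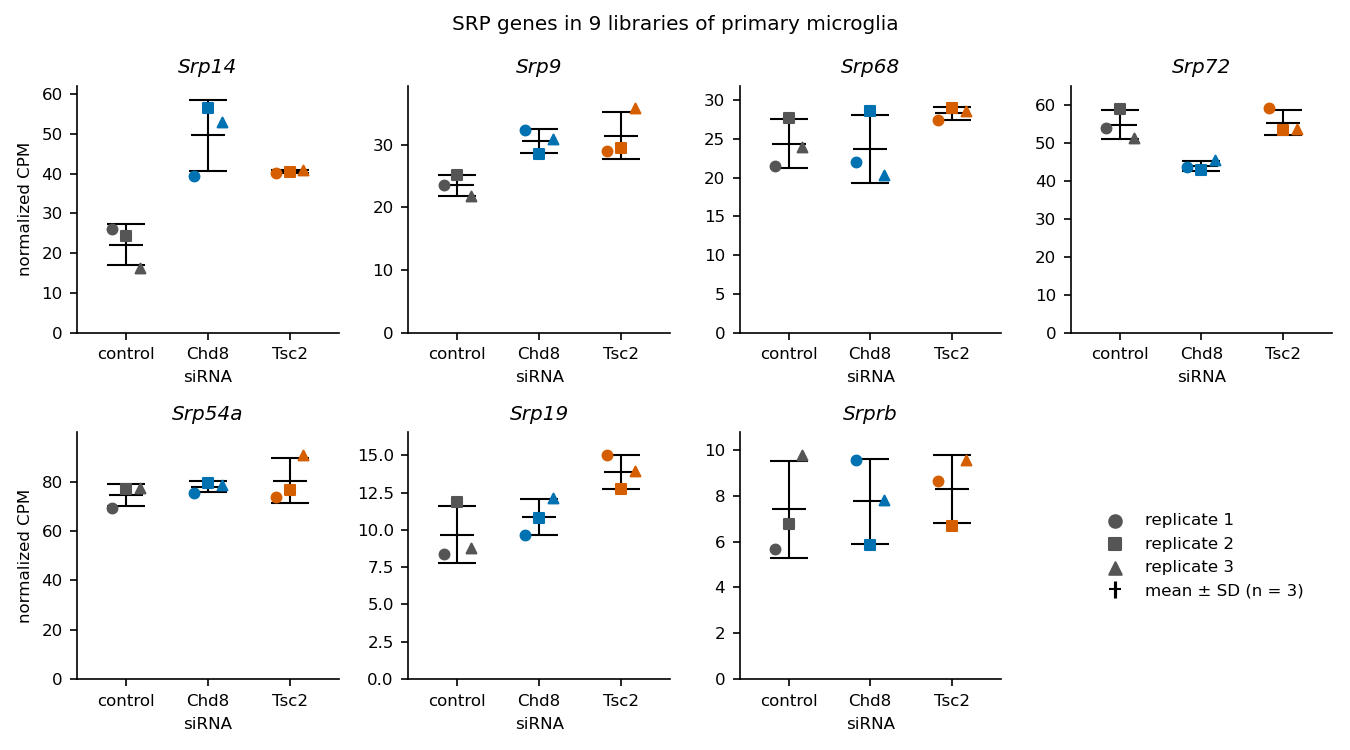
Normalized CPM of the 7 members in the 9 libraries, with 1 symbol per replicate number and bars for the mean ± SD of 3 libraries, each panel on its own axis from 0. Srp14 and Srp9 lie higher in all 6 knockdown libraries than in the 3 control libraries, Srp72 lies lower in the 3 Chd8 libraries, Srp19 lies higher in the 3 Tsc2 libraries, and the groups of Srp68, Srp54a and Srprb overlap.

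Over the 6 members other than Srp14, 0 were called in either control comparison, with or without the replicate block or by DESeq2, beside the 0.535% and 0.387% of all genes called with the block and the 0.0509% and 0.0136% called by DESeq2's Wald test. Without the block, 2 of the 6 had an unadjusted p under 0.05 in each comparison, Srp9 and Srp72 for Chd8 siRNA and Srp9 and Srp19 for Tsc2 siRNA, beside 3.82% and 2.61% of all genes. Their log2 fold changes were above 0 for 4 of 6 with Chd8 siRNA and for 6 of 6 with Tsc2 siRNA, beside 47.8% and 47.6% of all genes tested. The medians over the 6 were 0.06 and 0.19, beside −0.02 over all genes in both comparisons. Between the knockdowns, 0 of the 6 were called by any of these fits, beside 0.221% of all genes with the block and 0.0068% by DESeq2. In the fit of the siRNA alone, all 6 log2 fold changes of Chd8 siRNA against Tsc2 siRNA were below 0, whereas 50.6% of all genes were above 0. Those of Srp9, Srp54a and Srprb were above 0 when certain single libraries were left out, Tsc2 library 3 being one of them for each, at 0.06, 0.05 and 0.02. In the same fit Srp72 was the member with an unadjusted p under 0.05, beside 3.1% of all genes, and with the block Srp68 also had one (log2 fold change −0.27, edgeR adjusted p = 0.456).

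**Figure D4:**
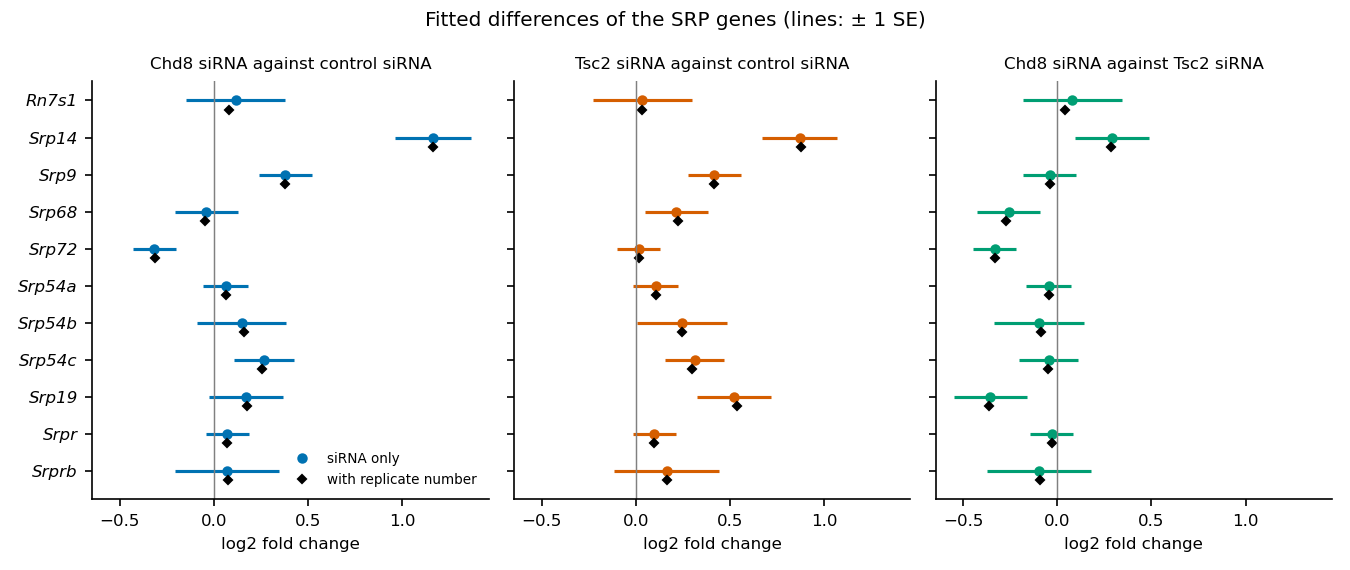
Fitted log2 fold changes of the SRP genes in the 3 comparisons, with lines of ± 1 SE from the fit of the siRNA alone (circles) and the values with the replicate number in the fit (diamonds). Srp14 stands at 1.16 and 0.87 against control siRNA, Srp72 at −0.32 for Chd8 siRNA alone, and the diamonds lie close to the circles.

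The other genes of the targeting pathway numbered 44, of which Rn7s2 was not analysed here and 43 were tested. Of these, 0 were called for Chd8 siRNA and 0 for Tsc2 siRNA by edgeR with or without the replicate block, beside 0.535% and 0.387% of all genes with the block, and 3 and 0 had an unadjusted p under 0.05 without it, beside 3.82% and 2.61%. Their log2 fold changes were above 0 for 30 of 43 genes in each comparison, beside 47.8% and 47.6% of all genes, with medians of 0.08 and 0.07 beside −0.02 over all genes. The groups did not overlap for 2 genes that were higher with Chd8 siRNA, Krtcap2 and Bag6, and for 1 that was lower with Tsc2 siRNA, Dad1, beside 4.17% and 4.23% of all genes. Between the knockdowns 0 of the 43 were called with or without the block, beside 0.221% of all genes with it, and 4 had an unadjusted p under 0.05 without it, beside 3.1%. All 3 Chd8 libraries lay above all 3 Tsc2 libraries for 5 of the 43 and below them for 1, beside 4.02% and 4.42% of all genes.

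The 12 genes of the translocon, the channel through which the new protein enters the endoplasmic reticulum, and of its associated TRAP complex had medians of −0.01 with Chd8 siRNA and 0.08 with Tsc2 siRNA. Sec61a2, an isoform of the channel's main subunit, was the lowest of these 43 genes with Chd8 siRNA, at 2.51 to 4.40 CPM against 3.69 to 5.15 CPM in the control, a log2 fold change of −0.32 (SE 0.33). The 5 genes of the signal peptidase, which cuts off the signal peptide, had a median of 0.06 in both comparisons. Sec11c, a catalytic subunit of this enzyme, was at 9.73, 14.6 and 15.8 CPM with control siRNA, 15.3, 21.7 and 21.4 CPM with Chd8 siRNA and 13.6, 12.6 and 11.9 CPM with Tsc2 siRNA. Its Chd8 libraries were higher than the control libraries at all 3 replicate numbers, although the groups overlapped, and they lay above all 3 Tsc2 libraries, as for 4.02% of all genes. The log2 fold change was 0.54 (SE 0.22) for Chd8 siRNA, −0.07 (SE 0.22) for Tsc2 siRNA and 0.62 (SE 0.22) for Chd8 against Tsc2 siRNA, the highest of the 43 genes in that comparison without the replicate block. With the block Krtcap2 was above it there, at 0.62 beside 0.59. None of the 3 differences of Sec11c passed the test (edgeR adjusted p = 1.00 for each, and 0.161, 0.966 and 0.181 with the replicate block). Without Tsc2 library 1, the fit with the block called the difference between the knockdowns (0.84, edgeR adjusted p = 0.0296).

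The 12 genes of the oligosaccharyltransferase, which adds sugar chains to the entering protein, held the highest values against control siRNA among the 43 genes. Krtcap2, a small subunit of this enzyme, was at 3.77, 5.05 and 3.13 CPM with control siRNA and at 6.70, 7.59 and 6.33 CPM with Chd8 siRNA. Its log2 fold change of 0.79 (SE 0.27) did not pass the test (edgeR adjusted p = 1.00, and 0.150 with the replicate block). Magt1 had the highest value with Tsc2 siRNA, 1.25 (SE 0.64), which rested on Tsc2 library 1 at 30.0 CPM beside 5.67 and 6.59 CPM in Tsc2 libraries 2 and 3 and 3.96 to 8.87 CPM in the control. Against Tsc2 siRNA it was also the lowest of the 43 genes with Chd8 siRNA, −0.63 (SE 0.63). Dad1 was at 10.7, 9.83 and 9.25 CPM with Tsc2 siRNA and at 13.7, 11.0 and 13.4 CPM with control siRNA, a log2 fold change of −0.36 (SE 0.17) that did not pass the test (edgeR adjusted p = 1.00, and 0.467 with the replicate block).

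The 10 genes listed for routes that run beside or after the SRP, such as the nascent polypeptide-associated complex and the insertion of tail-anchored proteins, had medians of 0.17 with Chd8 siRNA and 0.08 with Tsc2 siRNA. The list holds Snd1, for which a role of the mouse product in such a route was not checked (log2 fold changes of 0.08 and 0.05). Bag6, a chaperone for tail-anchored and mislocalized proteins, was at 141, 162 and 136 CPM with control siRNA, 164, 231 and 215 CPM with Chd8 siRNA and 129, 135 and 143 CPM with Tsc2 siRNA. Its log2 fold change with Chd8 siRNA was 0.47 (SE 0.14), under the 1.5-fold needed for a call (edgeR adjusted p = 1.00, and 0.0281 with the replicate block). With Tsc2 siRNA its log2 fold change was −0.11 (SE 0.14), and its 3 Chd8 libraries lay above its 3 Tsc2 libraries, as for 5 of the 43 pathway genes and 4.02% of all genes. The direct difference between the knockdowns was 0.58 (SE 0.14, edgeR adjusted p = 1.00, and 0.0208 with the replicate block, where its log2 fold change of 0.57 was again under the 1.5-fold). With the block and without Chd8 library 1 (0.68, edgeR adjusted p = 0.00704) or Tsc2 library 1 (0.62, edgeR adjusted p = 0.0116) this difference was called.

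**Figure D5:**
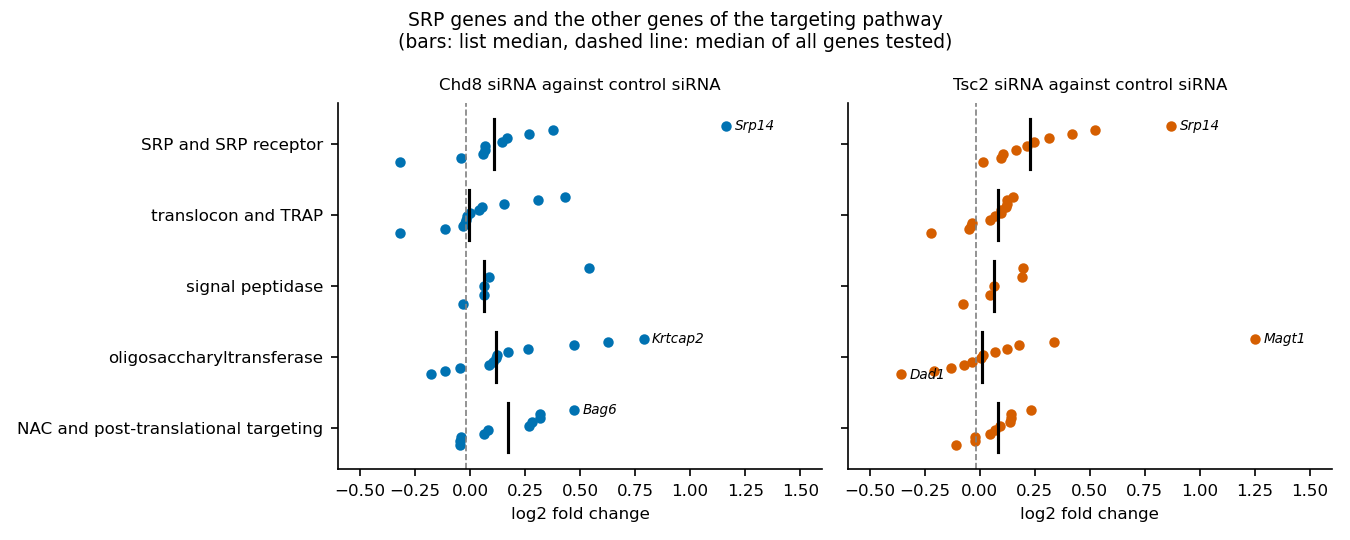
Log2 fold changes against control siRNA for the 10 protein genes of the SRP and its receptor and for the other lists of the pathway, 1 point per gene, with a bar at the median of each list and a dashed line at the median of all genes tested, −0.02 in both panels. Srp14 stands apart from its list in both panels, at 1.16 and 0.87, and Magt1 at 1.25 in the panel of Tsc2 siRNA is the value that rested on 1 library.

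The groups overlapped for the neighbours of Srp14 on chromosome 2. Eif2ak4, a kinase gene that responds to amino acid shortage, ends 616 bp from Srp14 on the opposite strand and was at 3.26 to 4.49 CPM with control siRNA, 2.17 to 4.66 CPM with Chd8 siRNA and 4.01 to 5.08 CPM with Tsc2 siRNA. Its log2 fold changes were −0.09 (SE 0.32) and 0.21 (SE 0.32). Bmf, which encodes a pro-apoptotic protein and lies 49046 bp away, did not exceed 1.15 CPM. No annotated gene overlaps Srp14, and no other annotated transcript matched it with at least 90% identity over 200 bases, so that no copy that could share its counts was found under these limits.

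The genes whose levels across the 9 libraries were most like those of Srp14 were named by Pearson's r of log2 CPM among the 16272 other genes tested. They were Mapk3, which encodes the kinase ERK1 (r = 0.964), AC165951.1 (r = 0.960), Nfyb, which encodes a subunit of the CCAAT-binding factor NF-Y (r = 0.940), Dnajc13, which encodes an endosomal co-chaperone (r = 0.933), and Nat2, an N-acetyltransferase gene (r = 0.933). AC165951.1 had 3 to 20 counts per library, at the floor of detection in control library 3. The libraries share 3 treatments and 3 replicate numbers, and values of r this high are the top of a ranking over all genes, so they carry no p. Mapk3 was at 61.7, 58.3 and 53.8 CPM with control siRNA, 64.6, 69.1 and 71.3 CPM with Chd8 siRNA and 63.5, 63.4 and 65.5 CPM with Tsc2 siRNA. It had the order of groups of Srp14 over a much narrower range. Among the members, Srp9 was the most like Srp14 with r = 0.790 and rank 157, Srp19 had r = 0.527, and Srp72 had r = −0.486.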

How the data were processed

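RNA of primary microglia was sequenced in 9 libraries. Per the labels a stranded SMARTer kit was used on total RNA, whereas the methods of the study name an Illumina preparation. Per the submitters' processing notes, Salmon 0.14.1 and mm10 were used, and the authors deposited estimated counts per transcript, not normalized or pooled, with 1 column per library. Values that were not whole made up 26.8% to 32.1% of a library.

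The estimated counts were summed per gene with GENCODE release M21, which matched 139852 of 140948 transcripts, and rounded. The 1096 unmatched transcripts held 0.270% of the counts and were left out of the fits of genes. Genes were filtered with filterByExpr, scaled by TMM and tested with the quasi-likelihood test of edgeR 4.0.16 in R 4.3.3, in 1 fit of all 9 libraries with a term for the siRNA alone. Benjamini-Hochberg adjustment ran over all genes, and a call needed an adjusted p of 0.05 and a fold change of 1.5. Transcripts were fitted in the same way. The edgeR and limma-voom fits of genes were also run on simulated data with changes larger than those of the genes described here. The DESeq2 fits and the fits of transcripts were not, and no result rests on these runs.

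The replicate numbers of the labels were taken to pair the libraries. Deviations from the group means correlated across genes with r = 0.244 to 0.521 for the 9 pairs with the same number and with −0.381 to 0.0363 for the 18 pairs with different numbers. The deviations within a group sum to 0, so positive values for equal numbers push the others down, and the second range is no separate evidence. The study does not say whether equal numbers mark 1 culture. P-values measure the spread between these libraries.

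The genes named are the members, the other SRP genes, the highest and the lowest gene over all other pathway lists in each comparison (none was called against control siRNA), the genes tested within 100 kb of Srp14, the 5 genes most like it over the libraries, and the siRNA targets. Bag6, Snd1, Srp9-202, Srp9-203, Srp72-201 and Srp72-202 were named after their values were seen. The members and lists were chosen with earlier results of these data known. The alternatives were DESeq2 size factors, no count filter, DESeq2 1.42.0, limma-voom (limma 3.58.1), fits of 2 groups, the replicate block, each library left out with and without the block, protein-coding or top transcripts only, and no fold-change threshold.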

Additional observations from a re-analysis of the deposited data

How the results depend on the processing

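Srp14 was higher in both knockdowns under all 26 alternatives, with log2 fold changes of 0.93 to 1.38 for Chd8 siRNA and 0.65 to 1.11 for Tsc2 siRNA. The count of called members was 0 in the fit of the siRNA alone, also with single libraries left out. With the replicate block and single libraries left out, it was 1 throughout for Chd8 siRNA and ran from 0 to 1 for Tsc2 siRNA. It was 1 with the block in both, and 1 with DESeq2's Wald test for Chd8 siRNA. Of the transcripts, 1 was called by that test for Chd8 siRNA. The member counted was Srp14 and the transcript Srp14-201, both chosen on these comparisons, so these counts are no independent evidence of their difference. The block changed no other call of a member.

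Over all genes, for Chd8 siRNA, Tsc2 siRNA and Chd8 against Tsc2 siRNA, the replicate block gave 87, 63 and 36 calls and DESeq2's Wald test 8, 4 and 2, against 0 in the fit of the siRNA alone. Without a count filter 2 and 1 genes were called in the control comparisons. With single libraries left out, the counts were 0 throughout without the block. With the block they ran from 20 to 108, from 7 to 131 and from 4 to 130. The cause was not tested. The signs of Srp54a, Srp68 and Srprb for Chd8 siRNA and of Srp72 and Srprb for Tsc2 siRNA changed under some alternatives, and those of the other members in the control comparisons did not. Between the knockdowns those of Srp9, Srp54a and Srprb changed in 4, 3 and 3 of 26 alternatives, all of them with 1 library left out.

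The 3 minor Srp14 transcripts had few counts at this depth, and every comparison rested on 3 libraries per group.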
